A study of Homo sapiens with 16 samples.

Results

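The genes described here are the ligands and receptors of the 4 classical axon guidance systems, read in 16 RNA-seq libraries of a transformed human mammary epithelial cell line. They were taken by symbol: protein-coding genes that start with EPHA, EPHB, EFNA, EFNB, SEMA, PLXN, SLIT, ROBO, UNC5 or NTN, together with NRP1, NRP2 and DCC. The rule found 71 genes among the 60448 in the count tables. They comprise 14 Eph receptors, 8 ephrins, 20 semaphorins, 9 plexins, 2 neuropilins, 4 netrins, 4 UNC5 receptors, DCC, 3 Slits and 4 Robo receptors. UNC50 and UNC5CL also start with UNC5 but are not netrin receptors; they are counted among the 71 and set apart by name. Non-coding genes with a matching symbol, 9 in number, were left out.

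The cells are HMLER, human mammary epithelial cells made immortal and tumorigenic with introduced genes. There were 2 libraries in each of 8 groups, all grown in the same mammary epithelial medium with insulin, EGF and hydrocortisone. The unedited groups were C2-Mes (mesenchymal), C2-Epi (a plastic epithelial state) and C1 (a stable epithelial state), all with the genotype label wild type. The edited groups were made from C1: sgEED-Mes and sgEED-Epi carry an EED knockout, sgKMT2D-Mes and sgKMT2D-Epi a KMT2D knockout, and sgControl a control guide with the label wild type. EED belongs to the core of PRC2, a complex that silences genes by methylating histone H3; KMT2D methylates histone H3 within the COMPASS family of complexes. The series set out to compare stable epithelial, plastic epithelial and distinct mesenchymal states. Whether a group's 2 libraries came from separate cultures is not stated, so p-values measure the spread between libraries only. That spread was estimated per gene over all 8 groups together, not from the groups compared alone. Whether the epithelial and mesenchymal cells of a guide came from 1 clone is not stated either. State and clone therefore cannot be told apart.

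Guidance ligands steer growing axons by attraction or repulsion, and the same molecules act between cells of many epithelia. Ephrins are tethered to the membrane and are read by Eph receptor tyrosine kinases on the neighbouring cell. Semaphorins are read by plexins, with neuropilins as co-receptors for most secreted class 3 members. Slits are secreted ligands of Robo receptors, and netrins are laminin-related ligands of DCC and the UNC5 receptors. In the mammary gland, several of these pairs are known for roles in duct branching and in the adhesion between cell layers.

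Total counts ran from 18872124 to 31950649 per library, and the guidance genes took 0.181% to 0.378% of them. The C2-Mes replicates were the least alike: their log2 values correlated with r of 0.967 across genes, and their log2 differences had an SD of 0.89, while no other pair exceeded 0.493. EED transcripts stood at 5.22 and 5.5 CPM in sgEED-Mes and 26.7 and 29.6 CPM in sgEED-Epi, against 26.6 and 21.6 CPM in sgControl. KMT2D transcripts stood at 86.6 and 76.8 CPM in sgKMT2D-Mes and 124 and 127 CPM in sgKMT2D-Epi, against 89.9 and 70.9 CPM in sgControl. Gene counts hold no sequence, so they do not show whether a gene was disrupted. Epithelial markers (CDH1, EPCAM, GRHL2, ESRP1, KRT14) summed to 5.69 to 12.8 CPM in the mesenchymal libraries, against 538 to 3057 CPM in the epithelial ones. Leukocyte markers summed to at most 0.284 CPM in any library. The 10 markers of neurons and glia summed to 148 to 250 CPM in the mesenchymal libraries, against 64.9 to 133 CPM in the epithelial ones. Among them, STMN2 and RBFOX3 reached at most 0.264 CPM in the mesenchymal libraries, although SYT1, NEFL and MAP2, which neurons also use, were expressed. In a bulk library, fewer cells of a type and less RNA per cell cannot be told apart.

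Of the 71 genes, 61 passed a filter on low counts and were tested. The other 10 were DCC, EPHA3, EPHA8, EPHA10, EFNA2, NTN3, NTN5, ROBO2, SLIT1 and UNC5D, none of which exceeded 17 counts in a library. DCC had 0 counts in all 16 libraries, which allows at most 0.0959 to 0.175 CPM depending on the library (3 counts). In CPM per kb of exon over the 16 libraries, the mean level of the most abundant member was 42.6 for the B ephrins (EFNB1), 41.8 for the plexins (PLXNB2), 30.3 for the EPHA receptors (EPHA2) and 26.1 for the neuropilins (NRP1). It was 21.9 for the semaphorins (SEMA3C), 21.6 for the EPHB receptors (EPHB4), 19.5 for the netrins (NTN4), 8.72 for the UNC5 receptors (UNC5B), 7.08 for the Robo receptors (ROBO1), 6.91 for the A ephrins (EFNA5) and 1.97 for the Slits (SLIT2). Ligands and receptors of all 4 systems were thus present, the Slits at the lowest level. EPHB4 lies partly opposite SLC12A9, and the strand setting of the counting is not given, so reads of the overlap cannot be assigned.

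The first question the design asks of these genes is how they differ between mesenchymal and epithelial cells of the same lineage. In C2-Mes against C2-Epi, 21 of the 61 tested guidance genes rose and 18 fell, 63.9% of them, against 39.6% of all 18285 genes tested (21% upward, 18.6% downward) and 43.9% of the protein-coding ones. In sgEED-Mes against sgEED-Epi, 23 rose and 18 fell (67.2%, against 36.5% of all genes, 19.2% upward and 17.3% downward, and 41.2% of protein-coding genes). In sgKMT2D-Mes against sgKMT2D-Epi, 26 rose and 13 fell (63.9%, against 50.8% of all genes, 26.8% upward and 24% downward, and 55.6% of protein-coding genes). The median log2 change of the tested guidance genes was 0.23, 0.20 and 0.41 in the C2, sgEED and sgKMT2D transitions, against 0.01, 0.01 and 0.02 over all genes. A gene was called at an adjusted p under 0.05 in edgeR's quasi-likelihood test over all genes. Of these calls 25 of 39, 25 of 41 and 26 of 39 held under every alternative setting and with each library left out in turn.

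The 3 transitions share no library. Called upward in all 3 were 9 guidance genes (EPHA4, EPHB6, UNC5B, NTN4, NRP1, PLXNA3, PLXNB2, PLXND1 and SEMA5A), 14.8% of the tested ones, against 7.69% of all genes and 9.03% of protein-coding genes. Called downward in all 3 were 8 (EPHA1, EPHA2, EFNA1, EFNB1, PLXNB1, SEMA3E, SEMA3F and SEMA4A), 13.1% against 7.03% and 7.93%. Another 12 were called upward in 1 transition and downward in another, 19.7% of the tested ones against 5.75% of all genes and 6.61% of protein-coding genes. Of those 12, only NRP2, PLXNA2, ROBO4 and SLIT2 held calls in both directions under every alternative run. Of the shared sets, SEMA5A, UNC5B, NRP1, NTN4 and EPHA4 on the upward side, and EPHA1, SEMA4A, PLXNB1 and EFNA1 on the downward side, held their calls in all 3 transitions under every alternative run.

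**Figure D1:**
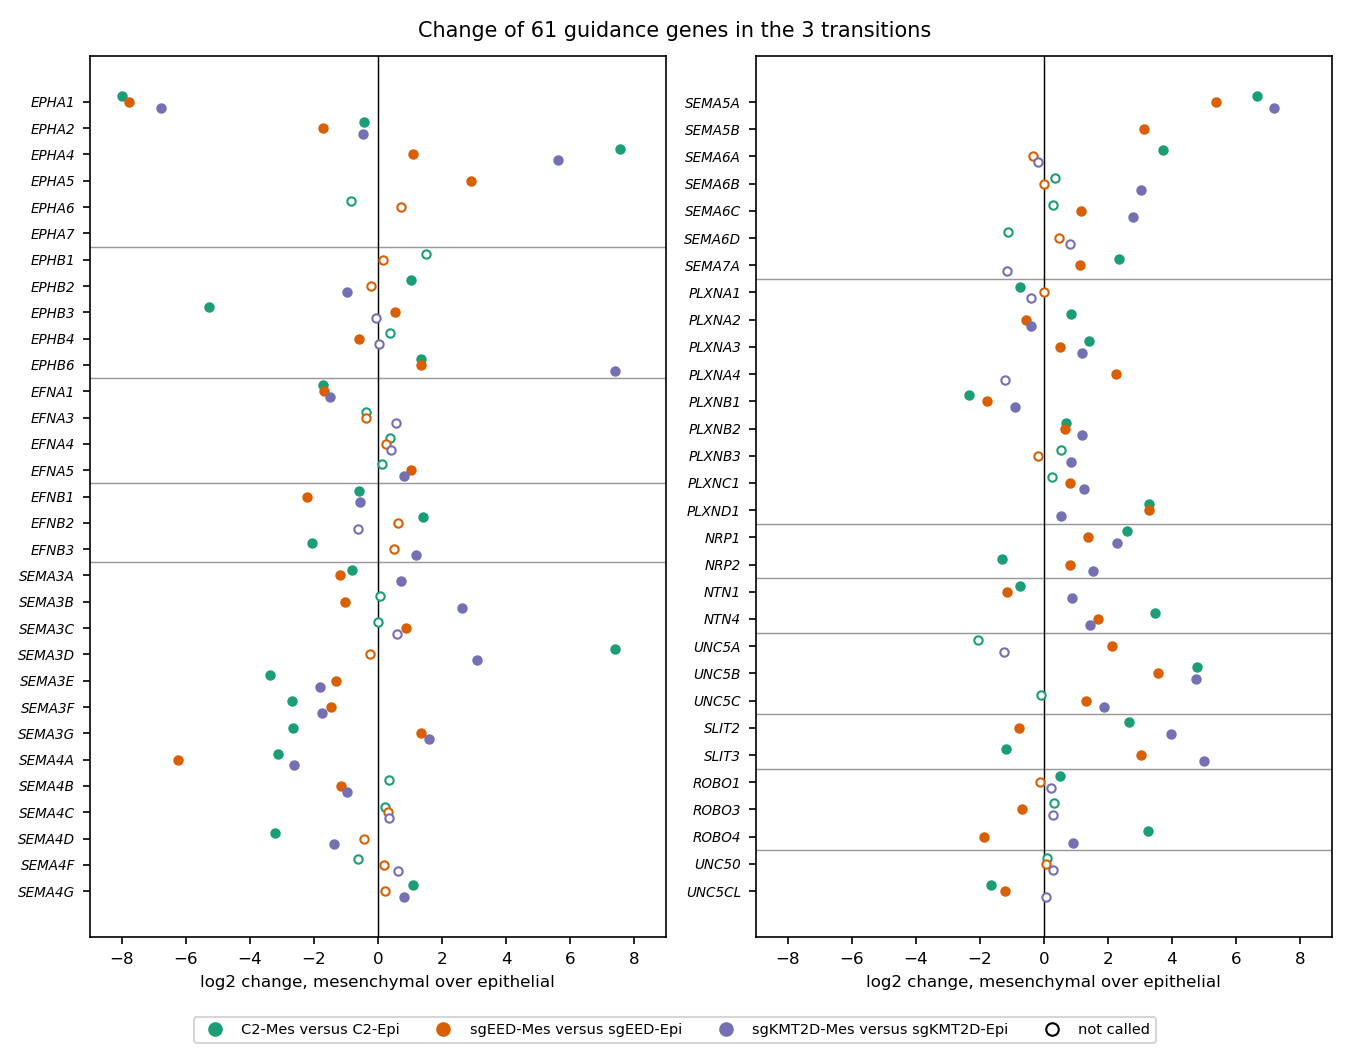
Log2 change of the 61 tested guidance genes in mesenchymal over epithelial libraries, 1 row per gene, with families separated by lines; filled points passed the test (adjusted p under 0.05), open points did not, and 10 changes with a group at 0 counts are not drawn. EPHA1 lies far to the left (-7.98, -7.78 and -6.78) and SEMA5A to the right (6.65, 5.39 and 7.19) in all 3 transitions, while points of SLIT3, ROBO4, NRP2 and EPHB3 fall on both sides of 0.

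Among the Eph receptors, EPHA1 was nearly lost from every mesenchymal group, while EPHA4 rose in each. EPHA1, the founding member of the receptor family, had 0.117 and 0.128 CPM in C2-Mes, against 32.9 and 32.3 CPM in C2-Epi (log2 change -7.98 ± 0.28, adjusted p = 1.1e-10). It had 0.218 and 0.132 CPM in sgEED-Mes, against 37.4 and 43.2 CPM in sgEED-Epi (log2 change -7.78 ± 0.27, adjusted p = 1.7e-10). The sgKMT2D-Mes libraries had 0.251 and 0.0875 CPM, against 18.4 and 20.2 CPM in sgKMT2D-Epi (log2 change -6.78 ± 0.27, adjusted p = 3.5e-10). Every mesenchymal library thus held under 0.3 CPM and every epithelial library over 18, although EPHA1 partly overlaps ZYX on the opposite strand, which had more counts.

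EPHA4, a receptor that binds ephrins of both the A and the B class, stood at 36.4 and 43.7 CPM in C2-Mes, against 0.144 and 0.269 CPM in C2-Epi (log2 change 7.58 ± 0.25, adjusted p = 7.4e-11). In sgKMT2D-Mes it stood at 48.9 and 57.5 CPM, against 1.03 and 1.11 CPM in sgKMT2D-Epi (log2 change 5.63 ± 0.20, adjusted p = 1.6e-10). Its change was smallest in the EED knockout, with 23.7 and 25.2 CPM in sgEED-Mes, against 11.3 and 11.6 CPM in sgEED-Epi (log2 change 1.09 ± 0.16, adjusted p = 0.00011). The 3 changes differed when tested directly: by -6.48 ± 0.30 on the log2 scale between sgEED and C2 (adjusted p = 8.5e-09) and by -1.95 ± 0.35 between sgKMT2D and C2 (adjusted p = 0.0012). EPHA4 ran from 23.7 to 57.5 CPM over the mesenchymal libraries and from 0.144 to 11.6 CPM over the plastic epithelial ones.

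EPHB6, an Eph receptor without kinase activity, reached 38.6 and 33.8 CPM in sgKMT2D-Mes, against 0.177 and 0.239 CPM in sgKMT2D-Epi (log2 change 7.42 ± 0.38, adjusted p = 2.8e-09). It had 35.4 and 23.8 CPM in sgEED-Mes, against 11 and 12.5 CPM in sgEED-Epi (log2 change 1.33 ± 0.25, adjusted p = 0.00071). In C2 the gene stayed low, with 0.876 and 0.831 CPM in C2-Mes, against 0.433 and 0.231 CPM in C2-Epi (log2 change 1.33 ± 0.44, adjusted p = 0.028). That last call was lost without either C2-Mes library (adjusted p = 0.081 and 0.095) and without C2-Epi replicate 2 (adjusted p = 0.24).

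EPHA2, the most abundant Eph receptor of the A class here, and EFNA1, an ephrin known to bind it, both fell. EPHA2 had 52.5 and 43.4 CPM in sgEED-Mes, against 146 and 170.2 CPM in sgEED-Epi (log2 change -1.72 ± 0.17, adjusted p = 2e-06). In the other transitions the change was small, -0.44 in C2 and -0.47 in sgKMT2D, and the calls were lost without C2-Epi replicate 1 or 2 (adjusted p = 0.065 and 0.066) and without sgKMT2D-Epi or sgKMT2D-Mes replicate 2 (adjusted p = 0.077 each). EFNA1 had 4.38 and 4.03 CPM in C2-Mes, against 14.4 and 12.8 CPM in C2-Epi (log2 change -1.70 ± 0.20, adjusted p = 9.4e-06). It had 7.69 and 5.02 CPM in sgEED-Mes, against 19 and 21.6 CPM in sgEED-Epi (log2 change -1.67 ± 0.19, adjusted p = 1e-05), and 4.6 and 4.95 CPM in sgKMT2D-Mes, against 12.8 and 14.3 CPM in sgKMT2D-Epi (log2 change -1.5 ± 0.20, adjusted p = 2.2e-05). No mesenchymal library reached an epithelial one of its own lineage for EFNA1. EFNA5, another glycolipid-anchored ephrin, went the other way in the edited lines, with 65.8 and 72 CPM in sgEED-Mes, against 32.8 and 34 CPM in sgEED-Epi (log2 change 1.04 ± 0.18, adjusted p = 0.00048). In sgKMT2D the EFNA5 change was 0.82 ± 0.18 (adjusted p = 0.0021). EFNA3 and EFNA4 passed the test in no transition.

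The transmembrane ephrins were abundant and did not move together. EFNB1 had 37.4 and 26.5 CPM in sgEED-Mes, against 138 and 158 CPM in sgEED-Epi (log2 change -2.21 ± 0.20, adjusted p = 9.7e-07). Its smaller falls in C2 (-0.58) and sgKMT2D (-0.57) were lost without C2-Epi replicate 1 (adjusted p = 0.057), sgKMT2D-Epi replicate 2 (adjusted p = 0.058) or sgKMT2D-Mes replicate 2 (adjusted p = 0.068), and the C2 value became -0.94 without C2-Mes replicate 2. EFNB2 rose in C2, with 138 and 315 CPM in C2-Mes, against 87.1 and 81.5 CPM in C2-Epi (log2 change 1.42 ± 0.28, adjusted p = 0.00094). The rise was 0.66 without C2-Mes replicate 2, and the call was lost when the C2 libraries alone were fitted (adjusted p = 0.083). The pair of C2-Mes libraries stood far apart for this gene. EFNB2 did not pass the test in the edited lines. EFNB3 fell in C2, with 3.45 and 8.88 CPM in C2-Mes, against 27.7 and 24.8 CPM in C2-Epi (log2 change -2.05 ± 0.30, adjusted p = 0.0001). In sgKMT2D it rose, with 20.8 and 21.2 CPM in sgKMT2D-Mes, against 7.62 and 10.8 CPM in sgKMT2D-Epi (log2 change 1.20 ± 0.29, adjusted p = 0.0041), a call lost without sgKMT2D-Epi replicate 1 (adjusted p = 0.065).

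Their B-class receptors were just as divided. EPHB3 had 0.468 and 0.415 CPM in C2-Mes, against 17 and 16.8 CPM in C2-Epi (log2 change -5.26 ± 0.27, adjusted p = 2.3e-09). In the edited lines there were 24.1 and 16.8 CPM in sgEED-Mes, against 13.3 and 15 CPM in sgEED-Epi, and 5.23 and 4.29 CPM in sgKMT2D-Mes, against 4.29 and 5.66 CPM in sgKMT2D-Epi. The small rise in sgEED (log2 change 0.53 ± 0.19, adjusted p = 0.04) was lost without sgEED-Mes replicate 1 (adjusted p = 0.46) and without either sgEED-Epi library (adjusted p = 0.2 and 0.11). Tested directly, the EPHB3 change in C2 lay 5.80 ± 0.33 below that in sgEED (adjusted p = 4.9e-08) and 5.20 ± 0.35 below that in sgKMT2D (adjusted p = 2.2e-07) on the log2 scale. EPHB2 fell in sgKMT2D, with 11 and 10.2 CPM in sgKMT2D-Mes, against 20.8 and 20.8 CPM in sgKMT2D-Epi (log2 change -0.98 ± 0.27, adjusted p = 0.0079). Its rise in C2 (26.2 and 57.7 CPM in C2-Mes, against 19.5 and 21.5 CPM in C2-Epi; log2 change 1.04 ± 0.26, adjusted p = 0.006) rested on C2-Mes replicate 2, without which it was 0.31 (adjusted p = 0.14), and was also lost without C2-Epi replicate 1 (adjusted p = 0.069). EPHB1 stayed below 1 CPM in every library, and EPHA5, EPHA6 and EPHA7 below 3.

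Of the semaphorins, only SEMA5A, a transmembrane member with thrombospondin repeats, was called upward in all 3 transitions. It had 514 and 551 CPM in C2-Mes, against 4.84 and 5.76 CPM in C2-Epi (log2 change 6.65 ± 0.23, adjusted p = 8.9e-11). It had 284 and 328 CPM in sgEED-Mes, against 6.82 and 7.76 CPM in sgEED-Epi (log2 change 5.39 ± 0.22, adjusted p = 5.3e-10). In sgKMT2D-Mes it had 609.8 and 601 CPM, against 4.96 and 3.31 CPM in sgKMT2D-Epi (log2 change 7.19 ± 0.24, adjusted p = 1.1e-10). No epithelial library of any group, C1 and sgControl included, exceeded 7.76 CPM, and no mesenchymal library fell below 284 CPM. The CPM of all 20 semaphorins summed to 672 to 952 in the mesenchymal libraries, against 220.2 to 628 in the epithelial ones. Without SEMA5A, the other 19 summed to 275.8 to 448 CPM in the mesenchymal libraries, against 217 to 625 CPM in the epithelial ones, and the 2 ranges overlapped.

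SEMA4A, a transmembrane semaphorin known from immune cells, fell in each transition. It had 0.0726 and 0.176 CPM in sgEED-Mes, against 8.76 and 9.93 CPM in sgEED-Epi (log2 change -6.23 ± 0.45, adjusted p = 1e-07). The C2-Mes libraries had 1.34 and 0.543 CPM, against 8.45 and 6.88 CPM in C2-Epi (log2 change -3.13 ± 0.34, adjusted p = 4.6e-06). In sgKMT2D-Mes it had 0.251 and 0.438 CPM, against 1.74 and 2.59 CPM in sgKMT2D-Epi (log2 change -2.63 ± 0.42, adjusted p = 0.00014). No mesenchymal library exceeded 1.34 CPM, and the groups overlapped in no lineage. SEMA4D and PLXNB1 are a known ligand and receptor pair. SEMA4D had 1.29 and 0.863 CPM in C2-Mes, against 9.97 and 9.45 CPM in C2-Epi (log2 change -3.22 ± 0.26, adjusted p = 2.6e-07), and 3.93 and 2.32 CPM in sgKMT2D-Mes, against 7.41 and 8.68 CPM in sgKMT2D-Epi (log2 change -1.36 ± 0.23, adjusted p = 0.00023). In sgEED it did not pass (log2 change -0.44 ± 0.22, adjusted p = 0.13). PLXNB1 had 28.4 and 28.1 CPM in C2-Mes, against 144 and 144 CPM in C2-Epi (log2 change -2.35 ± 0.19, adjusted p = 2.1e-07). Its change was -1.77 ± 0.18 in sgEED (adjusted p = 4e-06) and -0.91 ± 0.18 in sgKMT2D (adjusted p = 0.00079).

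The secreted class 3 semaphorins took different courses, and no 2 transitions gave the same set of calls over the 7 genes. SEMA3F, a repulsive ligand that prefers NRP2, had 21.9 and 7.7 CPM in C2-Mes, against 96.8 and 88.7 CPM in C2-Epi (log2 change -2.67 ± 0.36, adjusted p = 5e-05). It had 2.22 and 1.62 CPM in sgKMT2D-Mes, against 5.25 and 7.77 CPM in sgKMT2D-Epi (log2 change -1.75 ± 0.41, adjusted p = 0.0031). The fall in sgEED (27.8 and 19.7 CPM in sgEED-Mes, against 60.6 and 71.3 CPM in sgEED-Epi; log2 change -1.47 ± 0.35, adjusted p = 0.0043) was lost without sgEED-Mes replicate 2 (adjusted p = 0.058). SEMA3D rose most in C2, with 17.8 and 21.9 CPM in C2-Mes, against 0.108 and 0.115 CPM in C2-Epi (log2 change 7.41 ± 0.62, adjusted p = 4.6e-07). It rose in sgKMT2D as well (6.32 and 6.7 CPM in sgKMT2D-Mes, against 1.03 and 0.478 CPM in sgKMT2D-Epi; log2 change 3.08 ± 0.48, adjusted p = 0.00012), and did not pass in sgEED (log2 change -0.24 ± 0.40, adjusted p = 0.7). SEMA3B rose in sgKMT2D, with 5.06 and 3.46 CPM in sgKMT2D-Mes, against 0.78 and 0.598 CPM in sgKMT2D-Epi (log2 change 2.61 ± 0.38, adjusted p = 6.8e-05). In sgEED it fell (log2 change -1.03 ± 0.28, adjusted p = 0.011), a call lost without sgEED-Epi replicate 2 (adjusted p = 0.065) or sgEED-Mes replicate 2 (adjusted p = 0.11).

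SEMA3A, an axon repellent that binds NRP1, fell in C2 (-0.81) and sgEED (-1.19) and rose in sgKMT2D (0.71). All 3 calls were lost on leaving out 1 library: C2-Epi replicate 2 (adjusted p = 0.097) or C2-Mes replicate 1 (0.075), sgEED-Epi replicate 1 (0.052), and each sgKMT2D library in turn (adjusted p = 0.099 to 0.3). SEMA3G was low throughout the transitions, at most 1.65 CPM, and its call in C2 was lost when the C2 libraries alone were fitted (adjusted p = 0.076). It fell in C2 (-2.65 ± 0.52, -4.02 without C2-Mes replicate 1 and -1.72 without replicate 2), and its rises in sgEED and sgKMT2D were lost without each sgEED library (adjusted p = 0.072 to 0.22) and without sgKMT2D-Epi replicate 1 or 2 or sgKMT2D-Mes replicate 1 (adjusted p = 0.08 to 0.35). SEMA3C, the most abundant class 3 semaphorin, had 196 and 169 CPM in sgEED-Mes, against 129 and 69 CPM in sgEED-Epi (log2 change 0.88 ± 0.25, adjusted p = 0.014), a call lost without sgEED-Epi replicate 2 (adjusted p = 0.21) or sgEED-Mes replicate 1 (adjusted p = 0.13), and 1.39 on the log2 scale without sgEED-Epi replicate 1.

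SEMA3E and its receptor PLXND1, which bind without a neuropilin, moved in opposite directions. SEMA3E had 0.526 and 0.128 CPM in C2-Mes, against 3.07 and 2.73 CPM in C2-Epi (log2 change -3.36 ± 0.50, adjusted p = 9.4e-05), and 3.56 and 3.06 CPM in sgKMT2D-Mes, against 11.7 and 11.8 CPM in sgKMT2D-Epi (log2 change -1.82 ± 0.34, adjusted p = 0.00047). In sgEED it fell by 1.31 on the log2 scale, a call lost without sgEED-Epi replicate 1 (adjusted p = 0.093) or sgEED-Mes replicate 2 (adjusted p = 0.057). PLXND1 had 126 and 126 CPM in C2-Mes, against 14.2 and 11.8 CPM in C2-Epi (log2 change 3.27 ± 0.18, adjusted p = 5.1e-09). It had 129 and 98.7 CPM in sgEED-Mes, against 10.8 and 12.4 CPM in sgEED-Epi (log2 change 3.29 ± 0.18, adjusted p = 8.1e-09). In sgKMT2D the rise was small (31.5 and 26.6 CPM in sgKMT2D-Mes, against 18 and 21.7 CPM in sgKMT2D-Epi; log2 change 0.55 ± 0.17, adjusted p = 0.015) and was lost without sgKMT2D-Epi replicate 1 (adjusted p = 0.2) or sgKMT2D-Mes replicate 1 (adjusted p = 0.2). The sgKMT2D change of PLXND1 minus its C2 change was -2.72 ± 0.24 on the log2 scale (adjusted p = 3.1e-06).

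NRP1, co-receptor of class 3 semaphorins and of VEGF, rose in every lineage. It had 790.4 and 641 CPM in C2-Mes, against 118 and 116 CPM in C2-Epi (log2 change 2.61 ± 0.15, adjusted p = 9.4e-09). It had 373 and 428 CPM in sgEED-Mes, against 156 and 153 CPM in sgEED-Epi (log2 change 1.38 ± 0.15, adjusted p = 5.7e-06). In sgKMT2D-Mes it had 664 and 673 CPM, against 139.6 and 137 CPM in sgKMT2D-Epi (log2 change 2.27 ± 0.15, adjusted p = 3.9e-08). The sgEED change of NRP1 minus its C2 change was -1.23 ± 0.21 on the log2 scale (adjusted p = 0.00064). NRP2, its paralog, did not follow. It fell in C2, with 15.3 and 14.9 CPM in C2-Mes, against 37 and 37.6 CPM in C2-Epi (log2 change -1.30 ± 0.14, adjusted p = 4.2e-06). It rose in the edited lines, with 51 and 54.8 CPM in sgEED-Mes, against 28.5 and 31.9 CPM in sgEED-Epi (log2 change 0.81 ± 0.14, adjusted p = 0.00033), and 16 and 16.5 CPM in sgKMT2D-Mes, against 5.49 and 5.7 CPM in sgKMT2D-Epi (log2 change 1.54 ± 0.15, adjusted p = 1.2e-06). The NRP2 libraries of the 2 states overlapped in no lineage.

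Among the remaining plexins, PLXNA3 and PLXNB2 were called upward in each transition. PLXNA3 had 76.2 and 77.9 CPM in C2-Mes, against 27.9 and 29.5 CPM in C2-Epi (log2 change 1.43 ± 0.14, adjusted p = 2.1e-06), and 111 and 106 CPM in sgKMT2D-Mes, against 45.2 and 50.3 CPM in sgKMT2D-Epi (log2 change 1.18 ± 0.14, adjusted p = 9.6e-06). Its change in sgEED (0.51) was lost without sgEED-Mes replicate 1 (adjusted p = 0.16) or either sgEED-Epi library (adjusted p = 0.057 and 0.083); PLXNA3 lies partly opposite LAGE3. PLXNB2, the most abundant plexin, had 386 and 344 CPM in sgKMT2D-Mes, against 147 and 176 CPM in sgKMT2D-Epi (log2 change 1.18 ± 0.18, adjusted p = 8.9e-05). The calls in C2 (0.70) and sgEED (0.67) were lost without C2-Epi replicate 2 (adjusted p = 0.098), C2-Mes replicate 1 (0.074), sgEED-Epi replicate 1 (0.082) or sgEED-Mes replicate 1 (0.17). PLXNA2, a co-receptor with neuropilins, rose in C2 (79.2 and 88.3 CPM in C2-Mes, against 47.6 and 45.2 CPM in C2-Epi; log2 change 0.85 ± 0.13, adjusted p = 0.00012); its fall in sgKMT2D (log2 change -0.40) was lost without sgKMT2D-Mes replicate 2 (adjusted p = 0.069). It also fell in sgEED (91.3 and 88.8 CPM in sgEED-Mes, against 128 and 139 CPM in sgEED-Epi; log2 change -0.57 ± 0.13, adjusted p = 0.0034).

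The netrin system rose on the side of NTN4 and UNC5B. NTN4, a laminin-like netrin of basement membranes, had 183 and 145 CPM in C2-Mes, against 14.3 and 15.3 CPM in C2-Epi (log2 change 3.47 ± 0.21, adjusted p = 1.6e-08). It had 95.8 and 145 CPM in sgEED-Mes, against 37.1 and 37.8 CPM in sgEED-Epi (log2 change 1.69 ± 0.20, adjusted p = 1.4e-05), and 191 and 198 CPM in sgKMT2D-Mes, against 76.6 and 65.4 CPM in sgKMT2D-Epi (log2 change 1.45 ± 0.20, adjusted p = 3.3e-05). The groups overlapped in none of the lineages. NTN1, the classical attractant and repellent, fell in sgEED, with 16.2 and 11.4 CPM in sgEED-Mes, against 28.8 and 32.5 CPM in sgEED-Epi (log2 change -1.15 ± 0.25, adjusted p = 0.0021). Its fall in C2 (-0.75, and -1.38 without C2-Mes replicate 1) was lost without either C2-Epi library (adjusted p = 0.069 and 0.088) or C2-Mes replicate 2 (0.14). Its rise in sgKMT2D (0.89) was lost without sgKMT2D-Epi replicate 1 (0.12) or sgKMT2D-Mes replicate 1 (0.092).

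UNC5B, a repulsive netrin receptor also known as a dependence receptor, was highest in all 6 mesenchymal libraries. It had 188 and 176 CPM in C2-Mes, against 7.41 and 5.73 CPM in C2-Epi (log2 change 4.79 ± 0.21, adjusted p = 7.4e-10). It had 122 and 89.1 CPM in sgEED-Mes, against 8.11 and 9.83 CPM in sgEED-Epi (log2 change 3.55 ± 0.20, adjusted p = 1e-08). In sgKMT2D-Mes it had 111 and 104 CPM, against 3.54 and 4.54 CPM in sgKMT2D-Epi (log2 change 4.74 ± 0.22, adjusted p = 1.2e-09). It was lowest in the plastic epithelial libraries (3.54 to 9.83 CPM), with C1 and sgControl in between (25.6 to 34.4 CPM). UNC5C, a paralog, rose in the edited lines, with 47.5 and 44.3 CPM in sgKMT2D-Mes, against 12.8 and 12 CPM in sgKMT2D-Epi (log2 change 1.89 ± 0.17, adjusted p = 9.1e-07), and by 1.30 ± 0.17 in sgEED (adjusted p = 3.7e-05). It did not pass in C2 (log2 change -0.09 ± 0.17, adjusted p = 0.73), and the sgEED change minus the C2 change was 1.39 ± 0.24 (adjusted p = 0.00082).

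**Figure D2:**
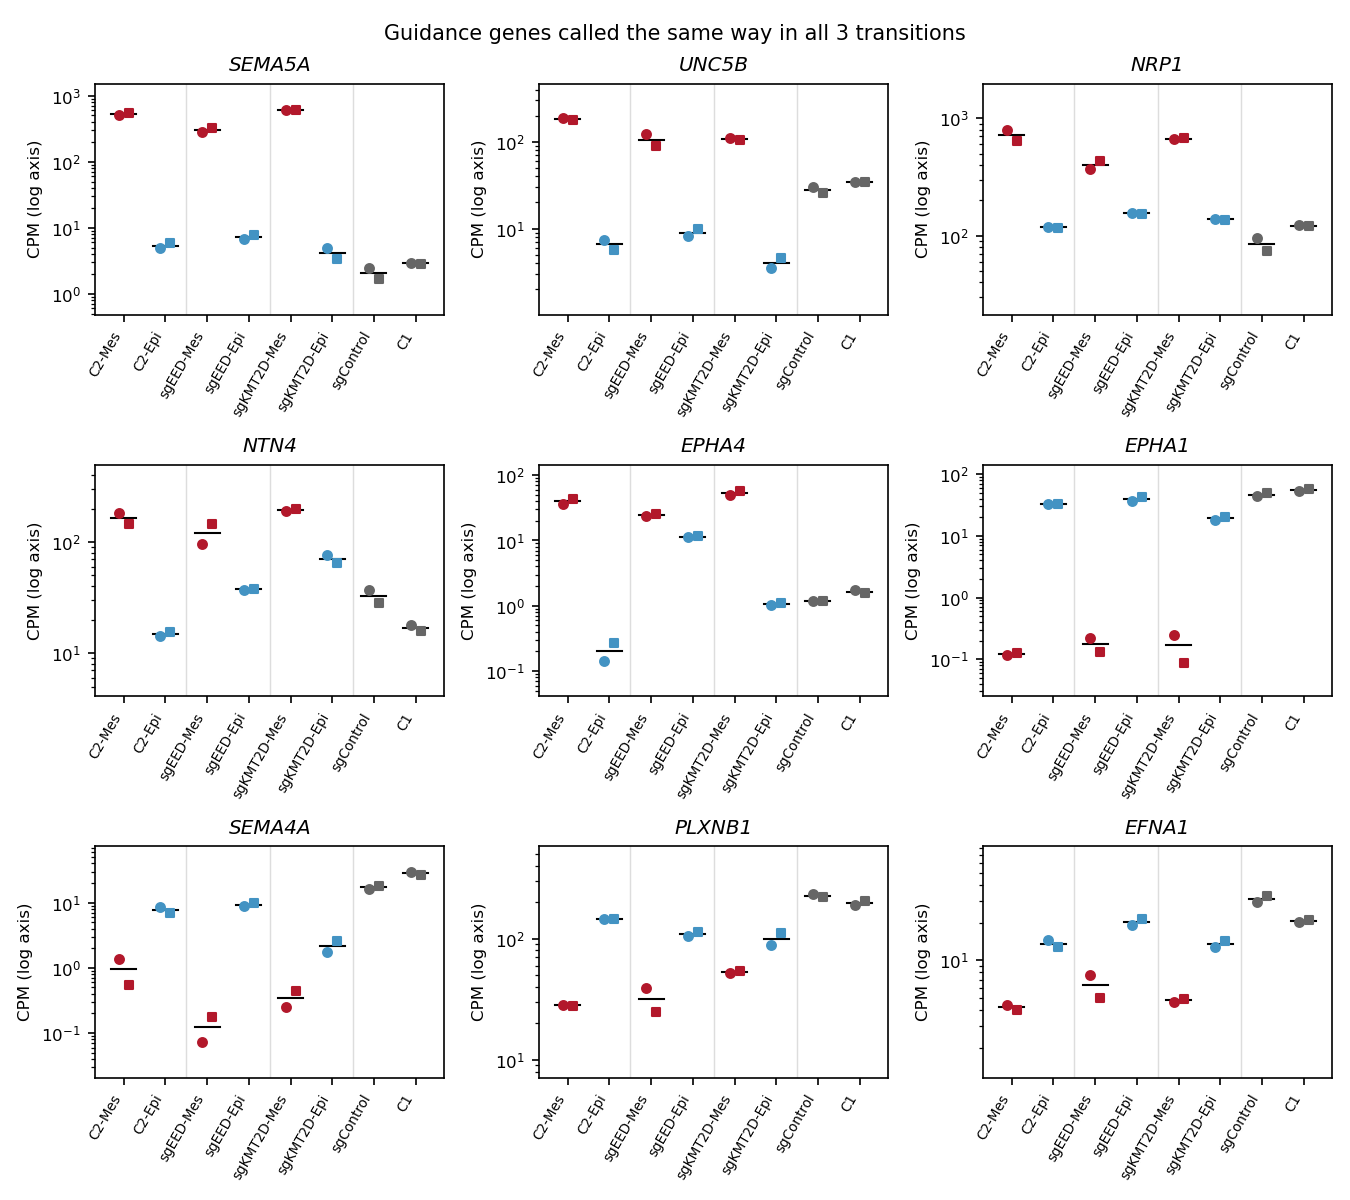
CPM per library on a log axis for the 9 guidance genes called the same way in all 3 transitions under every alternative run; circles are replicate 1, squares replicate 2, bars the mean of 2 libraries, red mesenchymal, blue plastic epithelial and grey sgControl and C1. SEMA5A lies at 284 CPM or more in every mesenchymal library and at 7.76 CPM or less elsewhere, and EPHA1 at 0.251 CPM or less in the mesenchymal libraries.

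SLIT2, SLIT3 and ROBO4 each rose in some lineages and fell in another. SLIT2, the best known Robo ligand, rose in sgKMT2D, with 73.4 and 67.5 CPM in sgKMT2D-Mes, against 4.43 and 4.62 CPM in sgKMT2D-Epi (log2 change 3.96 ± 0.21, adjusted p = 4e-09). It rose in C2, with 45.2 and 30.3 CPM in C2-Mes, against 6.21 and 5.76 CPM in C2-Epi (log2 change 2.65 ± 0.20, adjusted p = 1.2e-07). In sgEED it fell, with 11.2 and 14 CPM in sgEED-Mes, against 21.4 and 21.9 CPM in sgEED-Epi (log2 change -0.79 ± 0.19, adjusted p = 0.0045). SLIT3, its paralog, showed another order. It rose in sgKMT2D to 63.1 and 60.2 CPM in sgKMT2D-Mes, against 2.13 and 1.67 CPM in sgKMT2D-Epi (log2 change 5.01 ± 0.17, adjusted p = 1.3e-10), and in sgEED to 48.4 and 42.4 CPM in sgEED-Mes, against 5.56 and 5.41 CPM in sgEED-Epi (log2 change 3.05 ± 0.15, adjusted p = 3.2e-09). In C2 it was lower, with 0.76 and 0.767 CPM in C2-Mes, against 1.7 and 1.81 CPM in C2-Epi (log2 change -1.19 ± 0.21, adjusted p = 0.00042), and this call was lost when the C2 libraries alone were fitted (adjusted p = 0.073). The mesenchymal lines thus carried different Slits: mainly SLIT2 in C2-Mes, mainly SLIT3 in sgEED-Mes, and both in sgKMT2D-Mes.

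ROBO4, a Robo known chiefly from endothelium, was high in C2-Mes alone. It had 46.1 and 70.1 CPM in C2-Mes, against 7.12 and 5.15 CPM in C2-Epi (log2 change 3.24 ± 0.25, adjusted p = 1.3e-07). It fell in sgEED, with 0.762 and 0.88 CPM in sgEED-Mes, against 2.44 and 3.51 CPM in sgEED-Epi (log2 change -1.86 ± 0.31, adjusted p = 0.00028). In sgKMT2D it had 3.22 and 3.19 CPM in sgKMT2D-Mes, against 1.63 and 1.79 CPM in sgKMT2D-Epi (log2 change 0.91 ± 0.28, adjusted p = 0.014), a call lost on leaving out any of the 4 libraries (adjusted p = 0.053 to 0.094). The sgEED change of ROBO4 minus its C2 change was -5.10 ± 0.39 on the log2 scale (adjusted p = 4.9e-07). Of 5 endothelial markers, PECAM1 moved with ROBO4 in C2 (16.6 and 25.5 CPM in C2-Mes, against 3.29 and 2.5 CPM in C2-Epi), as did VWF (1.64 and 5.18 CPM in C2-Mes, against 0.253 and 0.192 CPM in C2-Epi). CDH5 had 0 counts in both groups, and KDR and TEK stayed at or below 0.292 CPM. In sgEED, where ROBO4 fell, 2 of the 4 markers tested rose and 0 fell. In sgKMT2D, 1 rose and 2 fell. The 5 markers summed to 18.6 to 30.7 CPM in C2-Mes and 1.41 to 4.60 CPM elsewhere; their part in the ROBO4 result was not tested.

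ROBO1, a receptor of SLIT2 and the most abundant Robo here, changed little. It had 129 and 127 CPM in C2-Mes, against 86.9 and 93.7 CPM in C2-Epi (log2 change 0.50 ± 0.14, adjusted p = 0.0089), a call lost without C2-Epi replicate 1 (adjusted p = 0.14) or 2 (adjusted p = 0.054). It did not pass in sgEED (log2 change -0.10 ± 0.14, adjusted p = 0.6) or sgKMT2D (log2 change 0.23 ± 0.14, adjusted p = 0.18). ROBO3 stayed between 14.8 and 28.9 CPM in all libraries of the transitions and fell in sgEED (log2 change -0.68 ± 0.17, adjusted p = 0.0058). ROBO2, the other neuronal Robo, had at most 2 counts in a library.

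**Figure D3:**
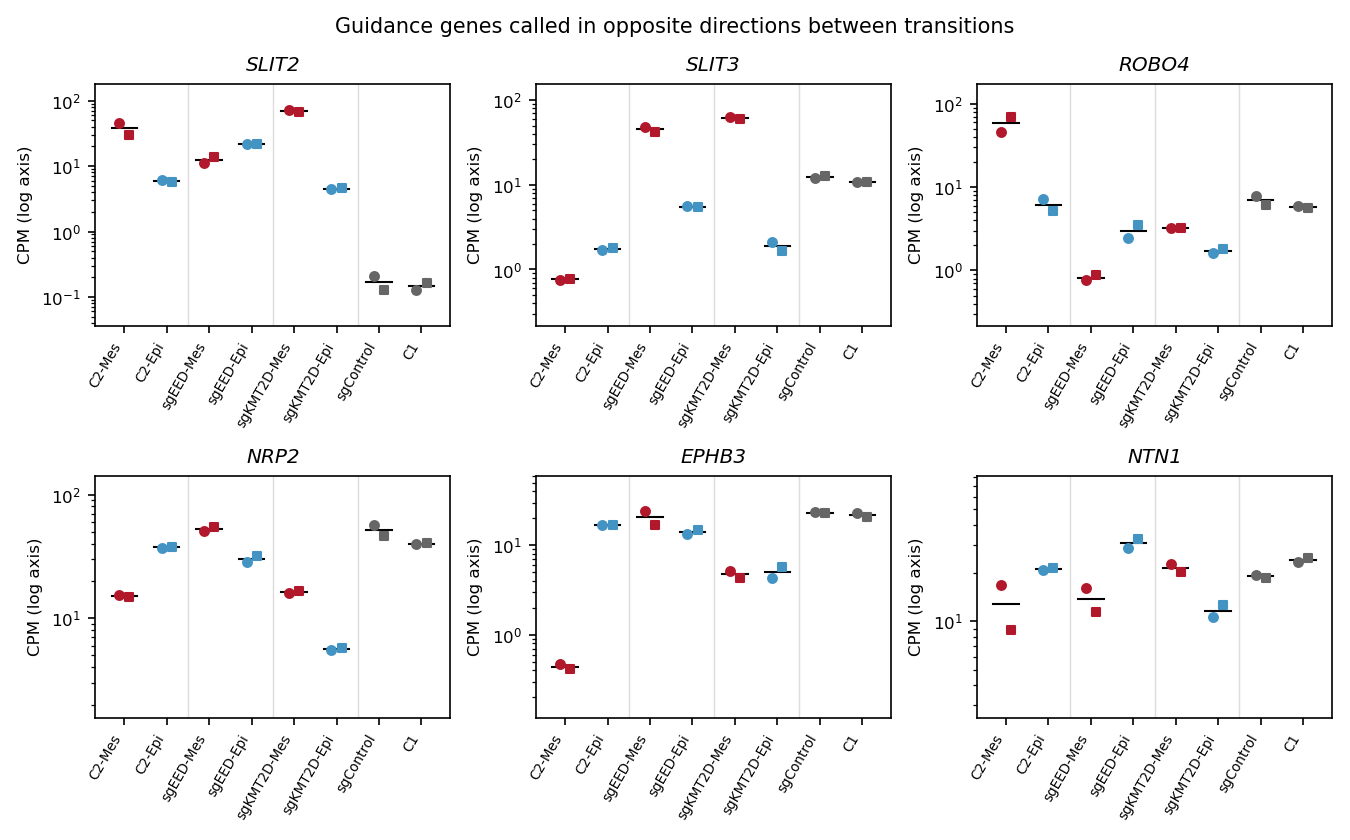
CPM per library on a log axis for 6 guidance genes called upward in 1 transition and downward in another (symbols and colours by replicate and state: circles replicate 1, squares replicate 2, red mesenchymal, blue plastic epithelial, grey sgControl and C1, bars the mean of 2 libraries). SLIT3 is high in sgEED-Mes and sgKMT2D-Mes (42.4 to 63.1 CPM) and low in C2-Mes (0.76 and 0.767 CPM), and ROBO4 is high in C2-Mes (46.1 and 70.1 CPM).

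Other members changed in 1 or 2 transitions. SEMA7A, a membrane-anchored semaphorin read by PLXNC1, had 22.9 and 93.7 CPM in C2-Mes, against 12.6 and 10.2 CPM in C2-Epi (log2 change 2.36 ± 0.44, adjusted p = 0.00073). The change was 0.96 without C2-Mes replicate 2, and the call was lost when the C2 libraries alone were fitted (adjusted p = 0.083). Its rise in sgEED (1.13) was lost without each sgEED library in turn (adjusted p = 0.075 to 0.23). SEMA6A, a transmembrane semaphorin read by class A plexins, rose in C2, with 5.73 and 2.4 CPM in C2-Mes, against 0.217 and 0.384 CPM in C2-Epi (log2 change 3.71 ± 0.46, adjusted p = 1.9e-05); SEMA6A-AS1 lies opposite to it. PLXNA1, an abundant plexin, fell in C2, with 139.9 and 168 CPM in C2-Mes, against 266 and 254 CPM in C2-Epi (log2 change -0.76 ± 0.16, adjusted p = 0.002), while SEMA4B fell in sgEED (-1.15 ± 0.19, adjusted p = 0.00025) and sgKMT2D (-0.96 ± 0.19, adjusted p = 0.00075). Among the scarce EPHA receptors, EPHA7 had 0.701 and 0.671 CPM in C2-Mes, against 0 counts in both C2-Epi libraries, at least 6.13-fold higher (3 counts per library as the floor). It had 36 counts in all 16 libraries together and at most 0.0762 CPM outside C2-Mes. It therefore passed the filter on low counts only through the group where it is high. Its upward call is counted above but supports nothing, and the call was lost with DESeq2 (adjusted p = 0.092). EPHA5 passed that filter only through sgEED-Mes (1.34 and 1.45 CPM, at most 0.468 CPM in any other library). SEMA5B passed it only through C1 (0.424 and 0.409 CPM, at most 0.378 CPM in any other library). The sgEED rise of EPHA5 and the fall of SEMA5B in C2-Epi against C1 are counted in the same way and support nothing either.

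The difference between transitions was also tested directly. Between sgEED and C2, 33 of the 61 guidance genes differed (12 upward, 21 downward), 54.1% against 21.1% of all genes (10.2% upward, 10.9% downward) and 24.4% of protein-coding genes. The 21 include EPHA7, which passed the filter on low counts only through C2-Mes, so its call supports nothing. That call was also lost with DESeq2 (adjusted p = 0.13). Between sgKMT2D and C2, 27 differed (16 upward, 11 downward), 44.3% against 24.1% (12.3% upward, 11.8% downward) and 27.2%. Between sgEED and sgKMT2D, 27 differed (6 upward, 21 downward), 44.3% against 20.1% (9.24% upward, 10.9% downward) and 23.4%. The last count went down to 16 without sgKMT2D-Epi replicate 1 and to 17 without sgKMT2D-Mes replicate 2. The comparisons share libraries pairwise, so their counts are not independent. Those called in no transition were EPHB1, EFNA3, EFNA4, SEMA4C, SEMA4F, SEMA6D and UNC50, 7 of the 61 (11.5%, against 30.8% of all genes). Of these, SEMA4C, SEMA4F and UNC50 were not scarce, with 9.11 to 22.6, 8.88 to 29.9 and 20.5 to 32.4 CPM over the 16 libraries.

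RefSeq promoters (GRCh38.p14), read over the 250 bases before each annotated start, were found for 61 of the 71 genes. The bases shortly after that start lay in sense in a GENCODE 29 transcript of the gene for 42 of the 61, among them EPHA1, SEMA3F, SEMA5A and EPHA4 but not SEMA4A, whose window lies inside the gene as annotated there. Among the genes called the same way in all 3 transitions, PLXNB1, SEMA3E, NTN4 and PLXNB2 were not among the 42 either. The sequence searched in them was the E-box CAGGTG with its other strand CACCTG, to which the ZEB and SNAI repressors bind. ZEB1 rose in all 3 transitions (177 and 92.1 CPM in C2-Mes, against 2.17 and 1.88 CPM in C2-Epi), and so did ZEB2 (5.51, 4.59 and 3.17 on the log2 scale). SNAI1 rose in sgEED (2.56, adjusted p = 6.3e-05), fell in sgKMT2D (-2.775, adjusted p = 0.011) and did not pass in C2 (1.06, adjusted p = 0.14). SNAI3 fell in sgEED (-2.78, adjusted p = 0.014) and sgKMT2D (-4.97, adjusted p = 0.023) and did not pass in C2 (-1.73, adjusted p = 0.067). SNAI2 fell in C2 (94.1 and 41 CPM in C2-Mes, against 170.5 and 177 CPM in C2-Epi; log2 change -1.37, adjusted p = 0.0018) and did not pass in sgEED (0.55, adjusted p = 0.15) or sgKMT2D (-0.50, adjusted p = 0.16). The motif was found in 9 of 61 guidance promoters (14.8%), against 17.5% of all 35116 promoters of the table. Of the genes called downward in all 3 transitions 3 of 8 held it, and of those called upward 0 of 7, with no promoter found for NRP1 and UNC5B. These counts are given as a description. A match is not a bound site, and a window without these letters says nothing of the factors. The median ratio of observed to expected CpG was 0.658 in guidance promoters and 0.558 in all. Shown are the 3 downward genes with the motif and 2 upward genes without it, 5′ to 3′ on the gene's strand, with the motif in capitals; the last base precedes the start.
EPHA1 (chr7:143408857-143409106, minus strand): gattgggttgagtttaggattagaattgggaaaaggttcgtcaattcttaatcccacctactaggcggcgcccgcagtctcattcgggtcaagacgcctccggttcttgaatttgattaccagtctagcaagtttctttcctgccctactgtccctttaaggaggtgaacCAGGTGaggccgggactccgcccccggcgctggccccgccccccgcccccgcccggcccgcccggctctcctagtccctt
SEMA3F (chr3:50154808-50155057, plus strand): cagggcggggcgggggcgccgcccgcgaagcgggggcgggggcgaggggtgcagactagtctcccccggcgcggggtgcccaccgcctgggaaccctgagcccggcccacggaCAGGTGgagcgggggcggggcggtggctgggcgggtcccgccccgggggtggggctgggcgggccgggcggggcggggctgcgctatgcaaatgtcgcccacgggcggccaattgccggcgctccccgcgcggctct
SEMA4A (chr1:156149694-156149943, plus strand): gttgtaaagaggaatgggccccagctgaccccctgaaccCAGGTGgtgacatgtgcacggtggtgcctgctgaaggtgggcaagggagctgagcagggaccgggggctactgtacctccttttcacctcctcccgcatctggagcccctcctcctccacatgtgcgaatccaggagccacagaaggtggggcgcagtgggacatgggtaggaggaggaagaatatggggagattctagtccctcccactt
SEMA5A (chr5:9546076-9546325, minus strand): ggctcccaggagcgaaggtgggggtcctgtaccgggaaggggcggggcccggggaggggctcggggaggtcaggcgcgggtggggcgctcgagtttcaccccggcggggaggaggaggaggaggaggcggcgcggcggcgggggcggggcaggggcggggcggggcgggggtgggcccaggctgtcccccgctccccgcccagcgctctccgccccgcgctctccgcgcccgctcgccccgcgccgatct
EPHA4 (chr2:221574203-221574452, minus strand): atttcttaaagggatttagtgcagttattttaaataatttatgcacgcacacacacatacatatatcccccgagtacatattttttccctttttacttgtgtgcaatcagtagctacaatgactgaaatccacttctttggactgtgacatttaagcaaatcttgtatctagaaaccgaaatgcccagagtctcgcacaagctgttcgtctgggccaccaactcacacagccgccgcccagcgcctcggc
In these windows the motif stands once in each of EPHA1, SEMA3F and SEMA4A, always on the gene's own strand.

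The second question is how plastic epithelial cells differ from stable ones. C2-Epi differs from C1 in lineage as well as in state, and sgEED-Epi and sgKMT2D-Epi carry a knockout that sgControl lacks. Plastic state therefore cannot be told apart from lineage or knockout in these comparisons. In C2-Epi against C1, 7 guidance genes rose and 24 fell (50.8% of the 61, against 30.7% of all genes, 12.4% upward and 18.3% downward, and 35.1% of protein-coding genes), with a median log2 change of -0.45 against -0.04 over all genes. Of those 31 calls 15 held under every alternative. The count was 15 without C2-Epi replicate 2, 18 without C1 replicate 2, and 20 without C2-Epi replicate 1 or C1 replicate 1. In sgEED-Epi against sgControl, 20 rose and 23 fell (70.5%, against 48.8% of all genes, 24.3% upward and 24.6% downward, and 54.5% of protein-coding genes), with a median of -0.09 against -0.01 over all genes, and 21 of the 43 calls held under every alternative. In sgKMT2D-Epi against sgControl, 12 rose and 33 fell (73.8%, against 56% of all genes, 25.3% upward and 30.7% downward, and 61.9% of protein-coding genes), with a median of -0.78 against -0.09 over all genes, and 28 of the 45 calls held. The last 2 comparisons share the sgControl libraries, so their values are set side by side and no overlap is drawn from them.

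SLIT2 was higher in every plastic epithelial group. It had 6.21 and 5.76 CPM in C2-Epi, against 0.127 and 0.164 CPM in C1 (log2 change 5.31 ± 0.33, adjusted p = 1.3e-07). It had 21.4 and 21.9 CPM in sgEED-Epi (6.96 on the log2 scale) and 4.43 and 4.62 CPM in sgKMT2D-Epi (4.70), against 0.21 and 0.129 CPM in sgControl. All 6 plastic libraries lay above 4 CPM and all 4 stable ones at or below 0.21 CPM, and each call held under every alternative. SLIT3 lay the other way round, with 1.7 and 1.81 CPM in C2-Epi, against 10.9 and 10.8 CPM in C1 (log2 change -2.63 ± 0.17, adjusted p = 1.4e-07). It had 5.56 and 5.41 CPM in sgEED-Epi (-1.19) and 2.13 and 1.67 CPM in sgKMT2D-Epi (-2.71), against 12.1 and 12.8 CPM in sgControl.

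UNC5B and PLXNB2 were lower in the plastic epithelial groups, opposite to their direction in the transitions. UNC5B had 7.41 and 5.73 CPM in C2-Epi, against 34.4 and 34.2 CPM in C1 (log2 change -2.38 ± 0.20, adjusted p = 1.9e-06). It stood at 8.11 and 9.83 CPM in sgEED-Epi (-1.64) and 3.54 and 4.54 CPM in sgKMT2D-Epi (-2.80), against 30.6 and 25.6 CPM in sgControl. PLXNB2 had 171 and 154 CPM in C2-Epi, against 442 and 428 CPM in C1 (log2 change -1.42 ± 0.18, adjusted p = 6.7e-05). With 215 and 240.3 CPM in sgEED-Epi (-0.97) and 147 and 176 CPM in sgKMT2D-Epi (-1.47), against 464 and 428 CPM in sgControl, the edited lines lay below their control too. No mesenchymal group exceeded the stable epithelial level of PLXNB2 of 428 to 464 CPM. SEMA4B, a transmembrane semaphorin, was lower as well, with 34.8 and 32.9 CPM in C2-Epi, against 98.4 and 97 CPM in C1 (log2 change -1.53 ± 0.18, adjusted p = 4.4e-05). It changed by -1.09 and -1.71 in sgEED-Epi and sgKMT2D-Epi against sgControl.

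Among the Eph receptors, EPHA4, EPHB3, EPHB4 and EPHB6 are given for the plastic epithelial groups, each against its own control. EPHA4 was lower in C2-Epi (0.144 and 0.269 CPM, against 1.74 and 1.55 CPM in C1; log2 change -2.98 ± 0.29, adjusted p = 8.9e-06). In sgEED-Epi it was higher (11.3 and 11.6 CPM, against 1.18 and 1.2 CPM in sgControl; log2 change 3.26 ± 0.20, adjusted p = 7.1e-08), while in sgKMT2D-Epi it did not pass (log2 change -0.15 ± 0.23, adjusted p = 0.65). EPHB6 was likewise high in sgEED-Epi, with 11 and 12.5 CPM, against 0.294 and 0.771 CPM in sgControl (log2 change 4.46 ± 0.34, adjusted p = 4.1e-07). Both receptors thus stood in sgEED-Epi above both stable epithelial groups and below sgEED-Mes. EPHB3 was lower in sgKMT2D-Epi, with 4.29 and 5.66 CPM, against 23.3 and 23 CPM in sgControl (log2 change -2.22 ± 0.20, adjusted p = 1.2e-06). EPHB4, the receptor of ephrin-B2, changed by -0.73 in C2-Epi against C1, and by -1.07 and -0.98 in sgEED-Epi and sgKMT2D-Epi against sgControl (-0.61 and -0.52 with C1 in place of sgControl).

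Of the guidance genes called lower in sgKMT2D-Epi, the 5 with the largest log2 changes were SEMA6B, SEMA3B, SEMA3G, SEMA3F and the co-receptor NRP2. SEMA3B, known as a candidate tumour suppressor, had 0.78 and 0.598 CPM in sgKMT2D-Epi, against 67.7 and 61.1 CPM in sgControl (log2 change -6.53 ± 0.38, adjusted p = 5e-08). SEMA3F had 5.25 and 7.77 CPM, against 132 and 129.6 CPM in sgControl (log2 change -4.33 ± 0.39, adjusted p = 1.5e-06). SEMA6B, a transmembrane ligand of class A plexins, had 0.0709 and 0.0398 CPM, against 8.6 and 9.17 CPM in sgControl (log2 change -7.18 ± 0.63, adjusted p = 9.5e-07). SEMA3G had 0.319 and 0.239 CPM, against 8.27 and 7.8 CPM in sgControl (log2 change -4.81 ± 0.45, adjusted p = 1.6e-06), and was low in sgEED-Epi as well (0.343 and 0.561 CPM; -4.13, or -2.61 with C1 in place of sgControl). NRP2 had 5.49 and 5.7 CPM, against 57 and 46.2 CPM in sgControl (log2 change -3.20 ± 0.15, adjusted p = 9.5e-09). These genes were higher in C1 than in sgKMT2D-Epi too, and no library of the 2 groups overlapped. NTN4 and EFNB2 were higher in sgKMT2D-Epi, by 1.12 ± 0.20 (adjusted p = 0.00031, and 2.08 with C1 in place of sgControl) and 0.98 ± 0.27 (adjusted p = 0.0077).

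**Figure D4:**
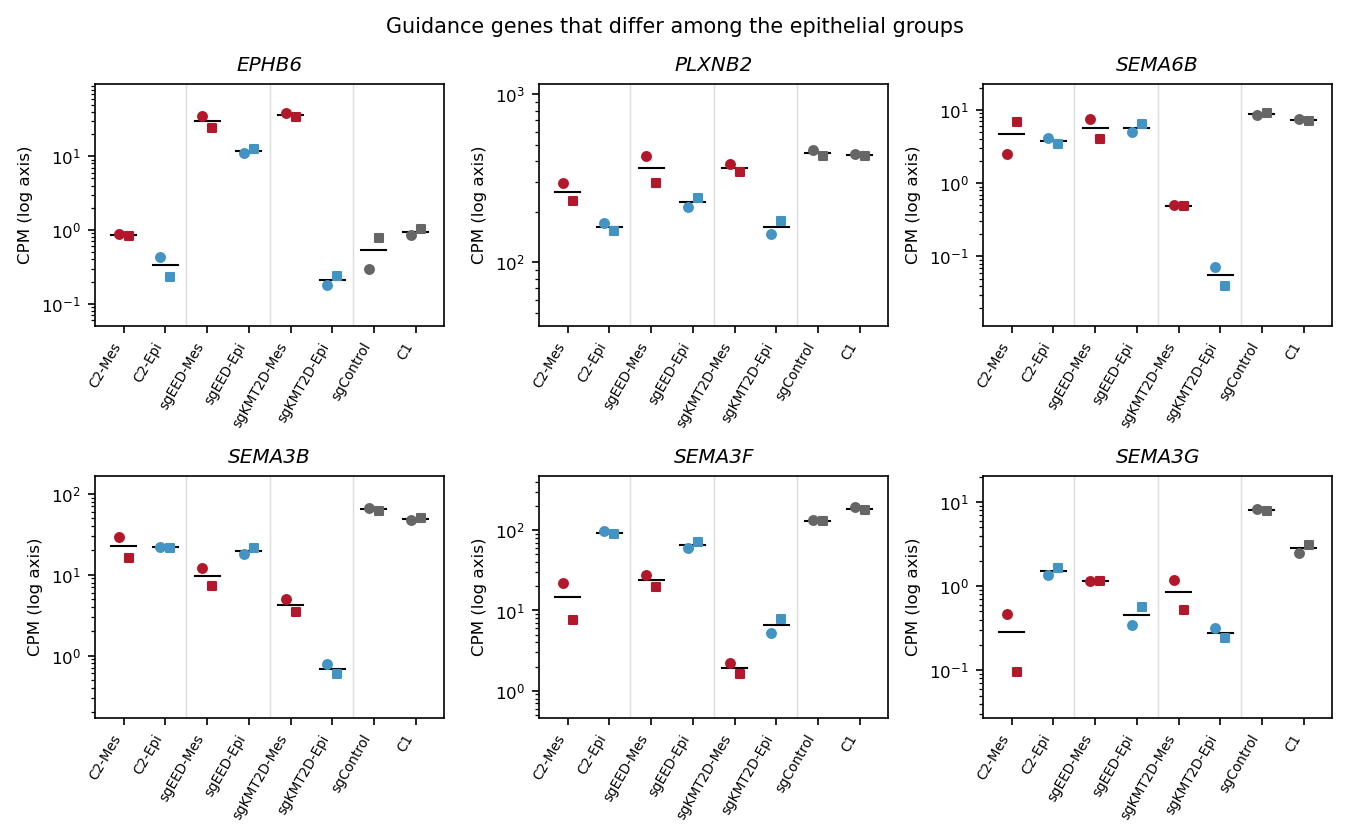
CPM per library on a log axis for 6 guidance genes that differ among the epithelial groups, with the mesenchymal groups beside them (circles replicate 1, squares replicate 2, red mesenchymal, blue plastic epithelial, grey sgControl and C1, bars the mean of 2 libraries). EPHB6 stands at 11 and 12.5 CPM in sgEED-Epi, and SEMA3B at 0.78 and 0.598 CPM in sgKMT2D-Epi, against 67.7 and 61.1 CPM in sgControl.

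Between the 2 stable epithelial groups, in sgControl against C1, 11 guidance genes rose and 9 fell, a share near that over all genes (32.8%, against 27.1% of all genes, 13.3% upward and 13.8% downward, and 30.5% of protein-coding genes), and 8 of the 20 calls held under every alternative. The count was 10 without C1 replicate 1, 11 without C1 replicate 2 or sgControl replicate 2, and 13 without sgControl replicate 1. The falls included the 4 class 3 semaphorins that lie in 1 stretch of chromosome 7, with other genes between them. SEMA3A had 3.94 and 4.03 CPM in sgControl, against 18.4 and 16.2 CPM in C1 (log2 change -2.12 ± 0.29, adjusted p = 0.00019). SEMA3C had 58 and 41 CPM in sgControl, against 136 and 145 CPM in C1 (log2 change -1.51 ± 0.26, adjusted p = 0.0011). SEMA3D had 0.042 and 0 CPM in sgControl, against 1.15 and 1.8 CPM in C1 (log2 change -5.82 ± 1.01, adjusted p = 0.0012), and SEMA3E fell by 1.37 on the log2 scale, a call lost without C1 replicate 2 (adjusted p = 0.074) or sgControl replicate 2 (adjusted p = 0.12). Both sgControl libraries lay below both C1 libraries for each of these genes. All 4 were called upward in sgEED-Epi against sgControl and in sgKMT2D-Epi against sgControl, but with C1 in place of sgControl the 2 values were -0.51 and -0.19 for SEMA3C, 0.49 and 0.33 for SEMA3E, 0.85 and -1.21 for SEMA3A, and 1.99 and -0.95 for SEMA3D. The SEMA3C call in sgEED-Epi was also lost without sgControl replicate 2 (adjusted p = 0.072) or sgEED-Epi replicate 1 (adjusted p = 0.13, log2 change 0.50), and the SEMA3A call in sgKMT2D-Epi without sgControl replicate 1 (0.066) or 2 (0.056) or sgKMT2D-Epi replicate 1 (0.092). Among the receptors, the rises of NRP1 in sgEED-Epi (0.86) and sgKMT2D-Epi (0.70) and of ROBO1 in sgEED-Epi (0.94) were lost with C1 as the control (adjusted p = 0.096, 0.32 and 0.75).

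**Figure D5:**
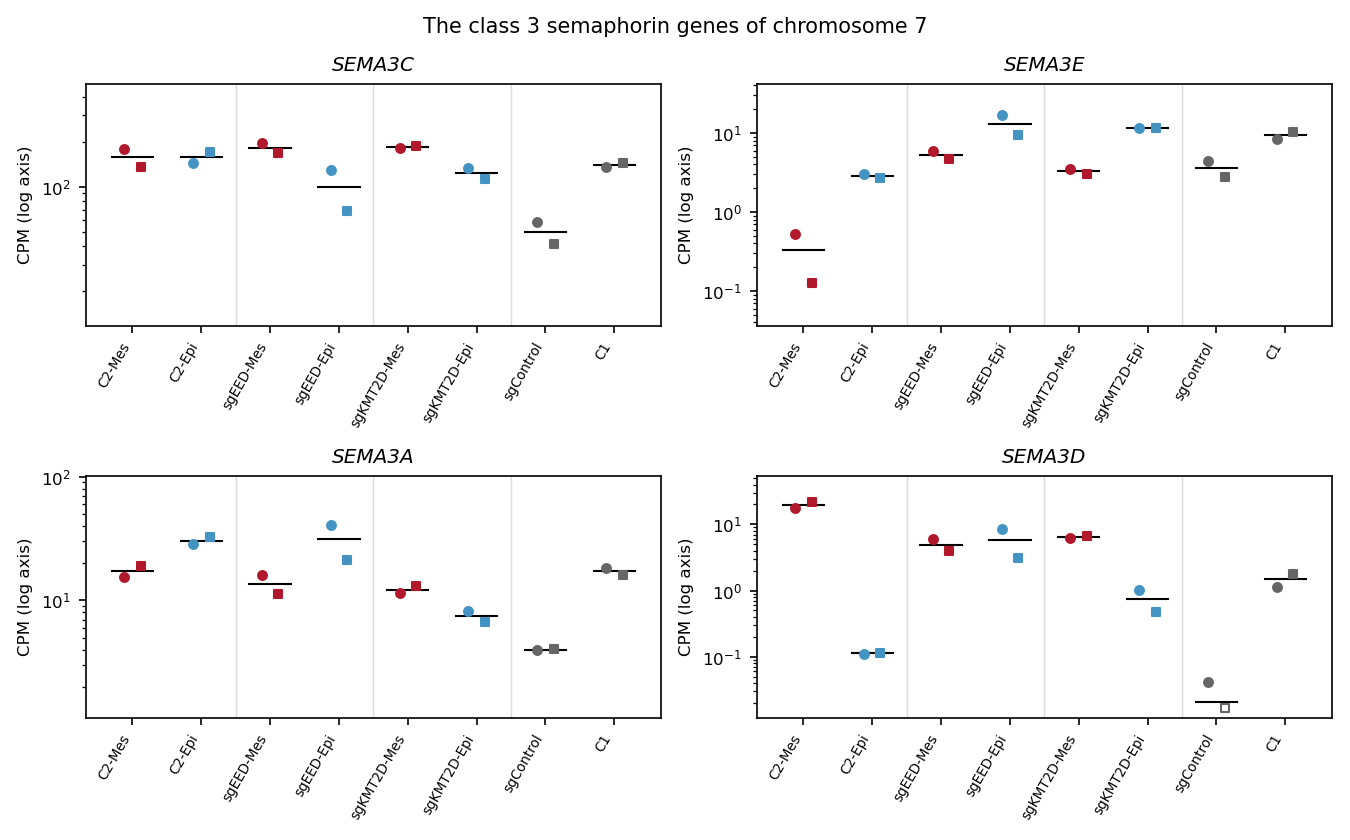
CPM per library on a log axis for the 4 class 3 semaphorin genes of chromosome 7 (circles replicate 1, squares replicate 2, red mesenchymal, blue plastic epithelial, grey sgControl and C1, bars the mean of 2 libraries; an open symbol at the bottom is a library at 0). The sgControl libraries are the lowest for SEMA3A, SEMA3C and SEMA3D, with SEMA3A at 3.94 and 4.03 CPM, against 18.4 and 16.2 CPM in C1.

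Other guidance molecules outside these families were read from a list of 21 genes, 18 of them tested. In C2, sgEED and sgKMT2D transitions 7, 8 and 8 of them rose and 4, 5 and 5 fell (61.1%, 72.2% and 72.2%, against 39.6%, 36.5% and 50.8% of all genes), with medians of 0.47, 0.78 and 0.42 on the log2 scale. DSCAM, a netrin-binding adhesion molecule, had 0 and 0.0639 CPM in C2-Mes, against 6.76 and 6.34 CPM in C2-Epi. It had 0 CPM in both sgEED-Mes libraries, against 15.4 and 17.3 CPM in sgEED-Epi, and 0 and 0.131 CPM in sgKMT2D-Mes, against 6.63 and 7.05 CPM in sgKMT2D-Epi. Its counts were at or near 0 in all 6 mesenchymal libraries. NRCAM, a semaphorin co-receptor and adhesion molecule, rose in each (4.62, 2.17 and 2.75), and the receptor MET, a partner of class B plexins, fell in each (-1.24, -1.63 and -1.77). Not all members of the list moved together. NTNG1 rose in C2 (2.93) and sgKMT2D (4.73) and fell in sgEED (-1.26). FLRT2 fell in sgEED (-2.37) and sgKMT2D (-1.15) and did not pass in C2 (0.71). L1CAM passed in sgKMT2D alone, where it fell (-2.33). Of 52 intracellular effectors, 50 were tested, and 16, 18 and 14 rose and 13, 11 and 15 fell, 58% in each transition against the same shares of all genes, with medians of 0.11, 0.16 and 0.06. In sgKMT2D that share is near the 55.6% of protein-coding genes. DPYSL3, a collapsin response mediator of semaphorin signals, had 443 and 409 CPM in sgKMT2D-Mes, against 52.9 and 53.1 CPM in sgKMT2D-Epi, and changed by 2.58 in C2, 1.74 in sgEED and 3.01 in sgKMT2D. RRAS, the small GTPase that plexins inactivate, rose by 2.00, 1.5 and 2.41. ABLIM1, an actin-binding protein of the netrin pathway, fell in all 3 (-5.46, -1.14 and -3.95), as did RHOD, a GTPase that binds plexins (-2.41, -2.98 and -1.53).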

How the data were processed

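Per the labels, total RNA from cultured or sorted cells was sequenced in 16 libraries, 2 in each of 8 groups. The deposited values are raw counts per gene; per the submitters' processing notes the authors used STAR 2.7.1a, featureCounts and GRCh38. The annotation release and the strand setting are not given in the sources used here; 94.1% of the 60448 gene IDs are in GENCODE 29, which gave biotypes and lengths. Counts of genes that overlap another may therefore be mixed.

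The guidance genes, the other gene lists and the tests were chosen with earlier results of these data known, so none of them is independent of those results. All genes passing edgeR's filterByExpr (18285) were fitted together with TMM scaling and 1 mean per group (edgeR 4.0.16, limma 3.58.1, R 4.3.3, 8 residual degrees of freedom). Log2 changes carry standard errors, and p-values are Benjamini-Hochberg adjusted over all genes. These standard errors are the absolute log2 change divided by the square root of the F statistic, and were not estimated by the model directly. CPM used TMM-scaled library sizes; levels between genes are given per kb of exon. Members were described in detail where called in all 3 transitions, in opposite directions, or among the 6 highest and lowest changes of a comparison with at least 5 CPM; the rest are named after their values were seen. Floors of 3 counts cover counting error only. Alternatives were RLE scaling, DESeq2 1.42.0, no filter on low counts, only the libraries compared, C1 as control, a replicate block and leaving out each library. Figures were drawn with matplotlib 3.10.9.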

Additional observations from a re-analysis of the deposited data

Results flagged for a closer look

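The change between mesenchymal and epithelial libraries differed between lineages for 33 of 61 guidance genes between sgEED and C2, 27 between sgKMT2D and C2, and 27 between sgEED and sgKMT2D, by edgeR's test of the difference (adjusted p under 0.05). The 33 include EPHA7, whose call supports nothing because it passed the filter on low counts only through C2-Mes. The genes below also went in opposite directions in the transitions compared, each past the test, although only NRP2, PLXNA2, ROBO4 and SLIT2 kept calls in both directions under every alternative, and values are differences of log2 changes.

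For sgEED minus C2, EPHB3 differed by 5.80, SLIT3 by 4.24, SEMA3G by 3.98 and NRP2 by 2.11, all higher in the sgEED transition. ROBO4 differed by -5.10, SLIT2 by -3.44 and PLXNA2 by -1.42. For sgKMT2D minus C2, SLIT3 differed by 6.21, SEMA3G by 4.23, EFNB3 by 3.24, NRP2 by 2.85, NTN1 by 1.64 and SEMA3A by 1.52. EPHB2 differed by -2.02 and PLXNA2 by -1.25. For sgEED minus sgKMT2D, SLIT2 differed by -4.75, SEMA3B by -3.64, ROBO4 by -2.77, NTN1 by -2.04 and SEMA3A by -1.90.

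The largest of these were for SLIT3, EPHB3, ROBO4 and SLIT2, of the Slit with Robo and the ephrin with Eph systems. Next came 2 semaphorins, SEMA3G (4.23 for sgKMT2D minus C2) and SEMA3B (-3.64 for sgEED minus sgKMT2D). The EPHB3 rise in sgEED (0.53, adjusted p = 0.04) was lost without sgEED-Mes replicate 1 (0.20, adjusted p = 0.46) and under 5 other alternatives of the 9 run, and the SLIT3 fall in C2 (-1.19) was lost when only the C2 libraries were fitted (adjusted p = 0.073).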

How the results depend on the processing

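Over the 61 tested guidance genes, 6354 values were recomputed under the alternatives. Of these, 5778 kept their side of the threshold with no sign change of a called value, 436 lost the call, 125 gained it, and 15 changed sign where the value was called with or without the alternative. Leaving out 1 library gave 32 to 39 called guidance genes in the C2 transition, 31 to 36 in sgEED, 32 to 33 in sgKMT2D, 15 to 20 in C2-Epi against C1, 30 to 36 in sgEED-Epi against sgControl, 39 to 41 in sgKMT2D-Epi against sgControl, and 10 to 13 in sgControl against C1. For the differences between transitions it gave 26 to 36, 24 to 33 and 16 to 28. With the replicate number as a block the 10 counts were 38, 38, 40, 30, 42, 44, 19, 33, 26 and 25, in the same order. Replicate numbers were not shown to pair the samples (correlations of deviations from -0.371 to 0.25 in the groups compared); a crossed pairing of the C2 libraries, added after seeing the data, gave 39. Fitting only the libraries compared gave 26 in the C2 transition, 48 in sgKMT2D, 28 in sgControl against C1 and 23 for sgEED minus C2. With only the C2 libraries fitted, edgeR's test gave EPHA1, EPHA4 and SEMA5A an adjusted p of 0.0017 each in that transition.

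With C1 in place of sgControl, the counts were 32 for sgEED-Epi and 40 for sgKMT2D-Epi. Among values called with either control, the sign changed in sgEED-Epi for PLXNA2 (0.57), EFNA5 (0.58), EFNB3 (0.15), PLXND1 (0.039), ROBO1 (-0.071), SEMA3C (-0.51) and PLXNC1 (-0.61), and in sgKMT2D-Epi for PLXND1 (0.81), UNC5C (-0.12), SEMA3C (-0.19), PLXNC1 (-0.19), SEMA3D (-0.95), ROBO1 (-0.98) and SEMA3A (-1.21). EFNA5 in the C2 transition was -0.39 without C2-Mes replicate 1 and 0.41 without C2-Mes replicate 2, against 0.13 with both. The cause was not tested. Low counts limit precision: the log2 change of SEMA3D in sgControl against C1, at 0.042 and 0 CPM in sgControl, had a standard error of 1.01.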

Other observations

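The genes lying between class 3 semaphorins were read as well, a choice made after their values were seen. On chromosome 7, PCLO, a presynaptic protein gene between SEMA3C and SEMA3E, had 4.28 and 2.44 CPM in sgControl, against 17.5 and 21 CPM in C1 (log2 change -2.51, adjusted p = 0.0014). It had 20.4 and 6.21 CPM in sgEED-Epi, against 4.28 and 2.44 CPM in sgControl (1.98, adjusted p = 0.0025). CACNA2D1, a calcium channel subunit gene of the same region, had 33.3 and 14.3 CPM in sgEED-Epi, against 0.0839 and 0.214 CPM in sgControl (7.28, adjusted p = 9.2e-07). It did not pass in sgControl, with 0.0839 and 0.214 CPM, against 0 and 0.0409 CPM in C1 (2.57, adjusted p = 0.24). Both genes were higher in sgEED-Epi replicate 1 than in replicate 2, and so were SEMA3A, SEMA3C, SEMA3D and SEMA3E.

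On chromosome 3, the 4 genes tested from SEMA3F to SEMA3B all fell in sgKMT2D-Epi against sgControl, where 30.7% of all genes fell. SEMA3F and SEMA3B themselves set this stretch. U73166.1, a non-coding gene, was scarce, with 0.142 and 0.239 CPM in sgKMT2D-Epi, against 0.629 and 0.471 CPM in sgControl (log2 change -1.52, adjusted p = 0.04). GNAI2, a G protein subunit gene, had 216 and 229 CPM in sgKMT2D-Epi, against 363 and 426 CPM in sgControl (log2 change -0.82, adjusted p = 0.0086). The falls of SEMA3F (-4.33) and SEMA3B (-6.53) at the ends of this stretch were larger.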
